A study of Mus musculus with 24 samples.

Results

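The genes described here are 41 type I interferon-stimulated genes, listed by name as known targets of the interferon response, with earlier results of these data known. They were read from the colon of mice with colitis-associated colorectal cancer on a low-fat diet (LFD) or a high-fat diet (HFD). A probe could be matched to 39 of the 41 by the accession given for the probe, out of 45616 genes (named by symbol, or by accession where no symbol matched) read from each array. Mx1 and Mx2, which encode antiviral GTPases, had no matched probe and are not analysed here. All 39 were tested in every comparison, and 36 of them were above background on all 24 arrays. The others were Ifit2 and Ifi44, above background on 23 arrays each, and Herc6, on 21.

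All mice were C57BL/6J, 7 weeks old on arrival, and all received 1 injection of azoxymethane (AOM, 10 mg/kg) and 3 cycles of 5 days of dextran sulfate sodium (DSS, 1.5%) in the drinking water, so no group was free of carcinogen or colitis. The groups were sham-operated males (M + LFD and M + HFD), sham-operated females (F + LFD and F + HFD) and ovariectomized females (F(OVX) + LFD and F(OVX) + HFD), with 4 arrays each. The LFD held 10% and the HFD 45% of its energy as fat, and the diets were given for 14 weeks. The study's methods name 5 animals per group for the arrays, picked for a body weight near the group mean, while the labels give 4. The labels give the tissue as colon, and the methods name the distal colon left over from histology as the piece kept for the arrays. The share of tumor in each piece is not given in the sources used here.

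Type I interferons are secreted when a cell detects foreign or misplaced nucleic acid. They bind the receptor made of Ifnar1 and Ifnar2, whose kinases Jak1 and Tyk2 phosphorylate Stat2 among others. Stat2 joins Irf9 in the complex ISGF3, which enters the nucleus and binds the interferon-stimulated response element (ISRE) in the promoters of the target genes. The targets include the sensors that start the response, the factor Irf7 that amplifies it, enzymes that degrade or block viral RNA, and inhibitors such as Usp18 that end it.

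Promoters of 30 of the 41 genes were held in a table of RefSeq promoters of the mouse build GRCm38.p6, each running from 250 bases before to 50 bases after the transcription start. The ISRE was searched on both strands as GAAANNGAAA, with any base at N and overlapping matches counted. It was found in 14 of these 30 genes (46.7%) and in 3.99% of all 27025 genes of the table. Dhx58, Ifi27l2a, Mx1, Mx2, Oas2, Parp14, Parp9, Rtp4, Tor3a, Usp18 and Zbp1 were not in the table. The stretches below, 100 bases each and all before the start, are shown for 3 genes with a match (Isg15, Ifit1 and Oas3) and for 2 without one (Ifi44 and Irf7), as examples from the 8 members with the largest change in the males. Of these 8, Usp18 was not in the table, and 4 of the other 7 held no match (Ifi44, Irf7, Ifit2 and Oasl2). Capitals mark the matches. They lie at chr4:156200845-156200944 on the minus strand, chr19:34640744-34640843 on the plus strand, chr5:120777695-120777794 on the minus strand, chr3:151749911-151750010 on the minus strand and chr7:141266425-141266524 on the minus strand, and are written along the strand of the gene.

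Isg15: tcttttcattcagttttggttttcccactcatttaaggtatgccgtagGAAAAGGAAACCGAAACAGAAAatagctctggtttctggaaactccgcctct

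Ifit1: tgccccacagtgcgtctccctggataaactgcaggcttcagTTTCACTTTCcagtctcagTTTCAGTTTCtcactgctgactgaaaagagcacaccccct

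Oas3: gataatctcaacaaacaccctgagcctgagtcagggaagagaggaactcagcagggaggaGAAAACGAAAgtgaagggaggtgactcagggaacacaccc

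Ifi44: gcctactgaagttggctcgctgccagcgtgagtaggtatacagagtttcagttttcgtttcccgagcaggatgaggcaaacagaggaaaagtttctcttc

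Irf7: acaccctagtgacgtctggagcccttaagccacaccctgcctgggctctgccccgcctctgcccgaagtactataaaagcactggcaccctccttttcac

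Isg15 held 3 overlapping matches, Ifit1 held 2 on the opposite strand and Oas3 held 1. Ifi44 and Irf7 held none in these letters within the window.

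Levels are given as the log2 of the processed signal after quantile normalization, so that a difference of 1 is a 2-fold difference. The level of one gene is never set against that of another gene, because probes differ in brightness. Between 40.5% and 61.9% of probes were above background per array. The males lay on 1 slide, the females on another and the OVX females on one more, so sex or surgery and slide cannot be told apart. The rows of a slide held 1 diet each, LFD in row 1 and HFD in row 2, and the effects of row and diet cannot be told apart. A colon-region signal stood apart in M + LFD: the mean log2 level of the distal colon genes Hoxa13, Hoxb13 and Hoxd13 was 2.08 in replicate 1 and 4.44 in replicate 2, against 8.44 to 11.50 in the other 22 arrays. F(OVX) + LFD replicate 1 and F(OVX) + HFD replicate 1 were the most alike of all 276 pairs of arrays, with an SD of their differences over genes of 0.246 against a median of 0.576. Results for the OVX females are therefore also given without that pair.

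HFD against LFD in the males. The interferon-stimulated genes were lower in M + HFD than in M + LFD as a group: the mean of each of the 39 measured members was lower, with log2 fold changes from -1.98 to -0.33 and a median of -0.89. Over all 20511 genes tested the median was 0.01 and 48.2% were lower. A gene was called when its fold change was at least 1.5 and its unadjusted limma p was under 0.05, the thresholds of the study. By that rule 11 members fell: Ifi44, Oas3, Irf7, Oasl2, Xaf1, Rtp4, Lgals3bp, Ddx58, Ifi27l2a, Parp14 and Helz2. Among all genes tested, 1.8% were called lower. All 4 HFD arrays lay below all 4 LFD arrays for 6 members (Irf7, Irf9, Oasl2, Rtp4, Helz2 and Lgals3bp), and for 0.912% of all genes tested. Fewer cells of a type and less RNA per cell cannot be told apart in RNA from whole tissue.

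No member passed after Benjamini-Hochberg adjustment over all genes (smallest adjusted p among the members 0.801 in limma, with 13 members at an unadjusted p under 0.05). The count of called members depended on single arrays. Leaving out M + LFD replicate 2 gave 6 and leaving out its replicate 3 gave 5, the arrays with the highest levels. Replicate 3 was also the array of the male slide with the fewest probes above background (45.9%). In M + HFD, leaving out replicate 1 gave 3 and replicate 2 gave 7. Leaving out M + LFD replicate 1 gave 23, leaving out its replicate 4 gave 25, and M + HFD replicate 4 left out gave 19. The median log2 fold change stayed below 0 in each of these, from -1.15 to -0.51. Without M + LFD replicates 1 and 2 together, the arrays with the low distal Hox level, 10 members were called and the median was -0.67. With the distal Hox level as a covariate 4 were called (Bst2, Ifi27l2a, Ifitm3 and Lgals3bp) and 37 of 39 members were lower. With the methods' t-test 6 were called.

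**Figure D1:**
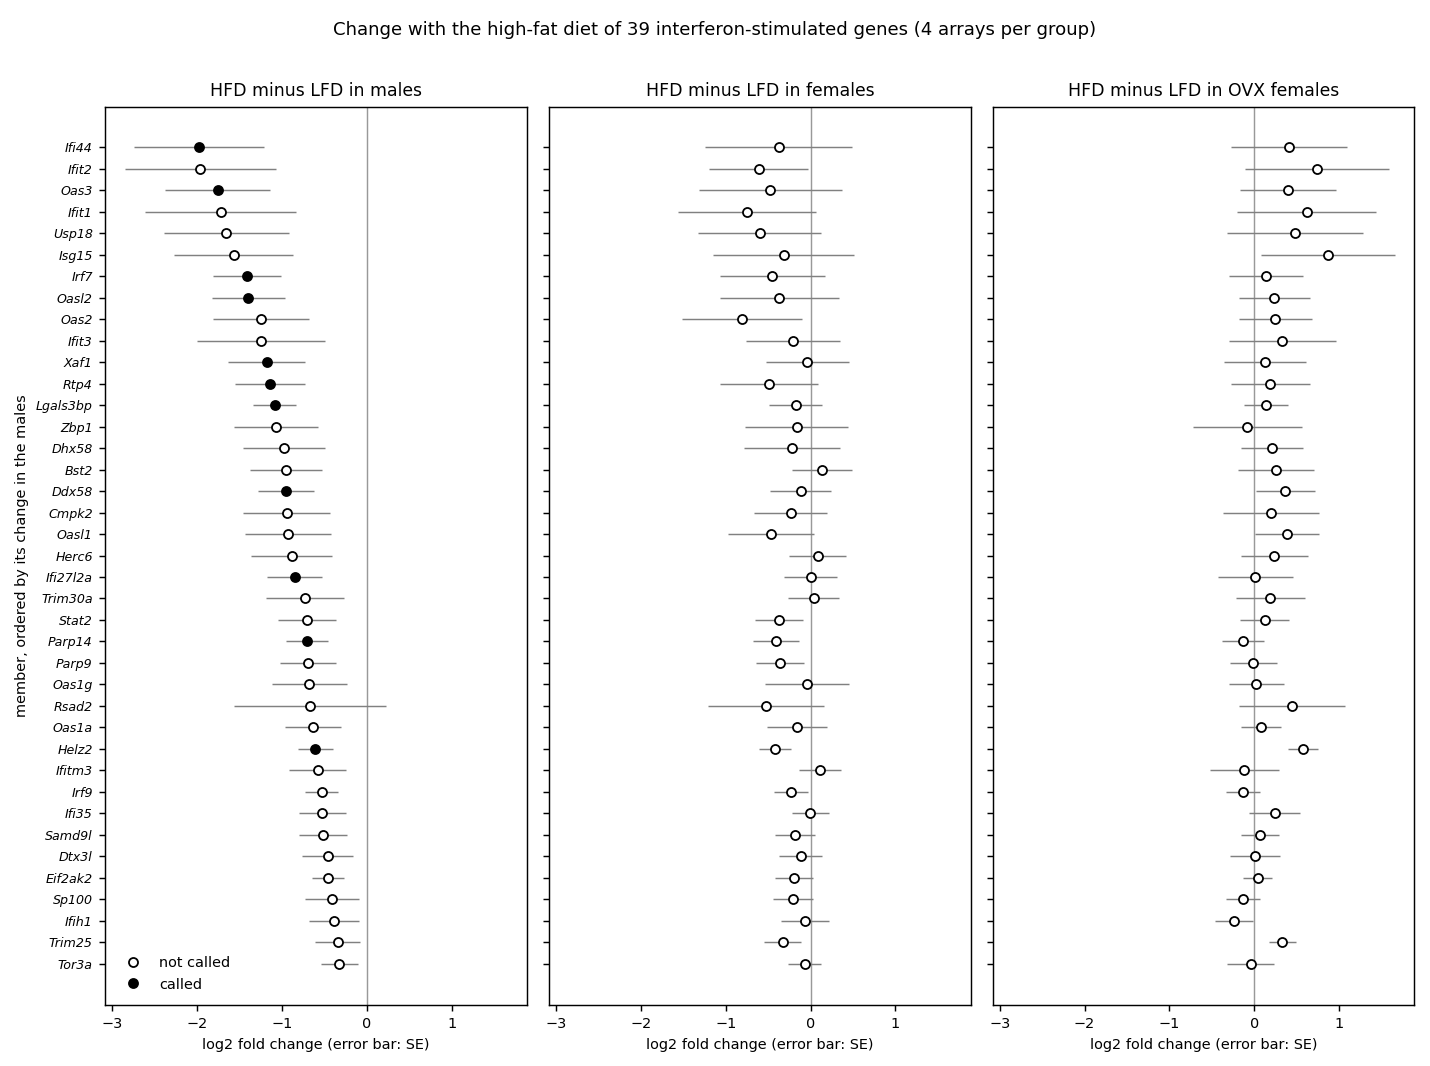
Log2 fold change of HFD against LFD (x axis, error bars SE) for each of the 39 measured members (y axis, ordered by the change in the males) in the males, females and OVX females, 4 arrays per group. All points lie below 0 in the males and the 11 filled points are the called members; no member was called in the females or in the OVX females, where points lie on both sides of 0.

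Among the factors that drive the response, Irf7 showed the clearest separation. This factor switches on the interferon genes and is itself an interferon target. Its log2 levels were 14.49, 15.88, 14.58 and 13.80 in M + LFD and 13.12, 12.95, 13.35 and 13.67 in M + HFD. Every HFD male lay below every LFD male, the closest being M + HFD replicate 4 and M + LFD replicate 4. The mean went from 14.69 ± 0.87 to 13.27 ± 0.31 (SD, n = 4 each). The log2 fold change was -1.41 (SE 0.40), which is 2.66-fold lower, with p = 0.00713 in limma and 0.0286 in the exact permutation test, the smallest p that 4 arrays against 4 allow. A second probe for Irf7 gave -1.55.

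Stat2 and Irf9, both subunits of ISGF3, did not reach the fold threshold together with the p threshold. Stat2 levels were 10.73, 12.02, 11.68 and 10.92 in M + LFD and 10.13, 10.57, 10.55 and 11.26 in M + HFD. The groups overlapped, since M + HFD replicate 4 lay above M + LFD replicates 1 and 4. Stat2 had a log2 fold change of -0.71 (SE 0.34), with p = 0.0697 in limma and 0.143 in the exact permutation test. Irf9 levels were 11.44, 12.17, 11.78 and 11.38 in M + LFD and 11.13, 11.33, 11.05 and 11.12 in M + HFD. The groups did not overlap for Irf9, but the difference was small, at -0.53 (SE 0.20) or 1.45-fold lower, with p = 0.0241 in limma and 0.0286 in the exact permutation test.

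The sensors of foreign nucleic acid were lower in mean in all 5 cases, with a median of -0.95, and 1 of the 5 was called. Ddx58 encodes RIG-I, the cytoplasmic sensor of viral RNA ends. Its levels were 9.91, 11.19, 10.76 and 9.84 in M + LFD and 9.18, 9.18, 9.64 and 9.88 in M + HFD. The only overlap was M + HFD replicate 4 with M + LFD replicate 4, the lowest of its group. Ddx58 fell by 0.95 on the log2 scale (SE 0.33), which is 1.93-fold, with p = 0.0192 in limma and 0.0571 in the exact permutation test. Ifih1 encodes MDA5, the sensor of long double-stranded RNA, and was among the 3 members with the smallest change. Its levels were 10.005, 10.95, 10.02 and 9.55 in M + LFD and 9.57, 9.46, 9.81 and 10.14 in M + HFD. The ranges overlapped, and the difference was -0.39 (SE 0.30) with p = 0.227 in limma and 0.343 in the exact permutation test. The others of the group, Dhx58, Zbp1 and Eif2ak2, had log2 fold changes of -0.98, -1.07 and -0.46 and were not called.

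The OAS family makes the oligoadenylates that activate RNase L, which cuts RNA in infected cells. All 6 members were lower in mean, with a median of -1.09, and Oas3 and Oasl2 were called. Oas3 levels were 8.04, 9.997, 8.53 and 6.97 in M + LFD and 5.68, 6.49, 7.03 and 7.29 in M + HFD. The LFD males spread over 3 log2 units, and M + HFD replicates 3 and 4 lay above M + LFD replicate 4. Oas3 was 3.39-fold lower in mean, a log2 fold change of -1.76 (SE 0.62), with p = 0.0199 in limma and 0.0857 in the exact permutation test. Oasl2, an OAS-like protein, gave 12.16, 13.80, 12.94 and 11.61 in M + LFD and 10.90, 11.18, 11.37 and 11.48 in M + HFD. The highest HFD male still lay below the lowest LFD male. Its log2 fold change was -1.40 (SE 0.43), with p = 0.0106 in limma and 0.0286 in the exact permutation test. Oas1a, Oas1g, Oas2 and Oasl1 ranged from -1.25 to -0.64 and were not called.

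The IFIT proteins bind foreign RNA and block its translation. Their differences were among the largest in size but none of the 3 was called, and the mice of one group differed widely. Ifit2 levels were 6.81, 9.73, 7.95 and 6.07 in M + LFD and 4.98, 4.26, 6.01 and 7.44 in M + HFD. M + HFD replicate 2 was not above background for Ifit2, and M + HFD replicate 4 lay above M + LFD replicates 1 and 4. For Ifit2 the log2 fold change was -1.97 (SE 0.89), with p = 0.0561 in limma and 0.114 in the exact permutation test. Ifit1 gave 9.39, 11.24, 8.28 and 7.10 in M + LFD and 6.60, 6.22, 7.50 and 8.81 in M + HFD. Here M + HFD replicate 4 lay above M + LFD replicates 3 and 4. Ifit1 had a log2 fold change of -1.72 (SE 0.89), with p = 0.0867 in limma and 0.171 in the exact permutation test. For Ifit3 it was -1.25 (SE 0.76).

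Isg15 is a ubiquitin-like protein that is attached to other proteins, and Usp18 is the protease that removes it and also dampens the receptor. Isg15 levels were 11.47, 14.86, 13.39 and 11.81 in M + LFD and 10.58, 11.25, 11.46 and 11.94 in M + HFD. M + LFD replicate 2 lay far above every HFD male, while replicates 1 and 4 lay within their range. For Isg15 the log2 fold change was -1.57 (SE 0.70), with p = 0.0541 in limma and 0.114 in the exact permutation test. Usp18 levels were 7.72, 10.82, 9.70 and 7.68 in M + LFD and 6.89, 6.45, 7.83 and 8.11 in M + HFD. M + LFD replicates 1 and 4 lay within the range of the HFD males. Usp18 had a log2 fold change of -1.66 (SE 0.74), with p = 0.0523 in limma and 0.171 in the exact permutation test. Of the other enzymes of this group, Trim25, the ubiquitin ligase that activates RIG-I, gave 14.37, 14.74, 13.998 and 13.85 in M + LFD and 13.73, 13.41, 14.21 and 14.24 in M + HFD. Its groups overlapped and its log2 fold change was -0.34 (SE 0.26), with p = 0.223 in limma and 0.286 in the exact permutation test. Herc6, the ligase for Isg15, had a log2 fold change of -0.89, and Trim30a one of -0.73. None of these 5 was called.

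Of the restriction factors in membranes and nucleotide pools, none of 5 was called in the males. Rsad2 encodes viperin, Bst2 tetherin and Ifitm3 a block to viral entry. The log2 fold changes were -0.96 for Bst2, -0.95 for Cmpk2, -0.67 for Rsad2, -0.58 for Ifitm3 and -0.52 for Samd9l. In the ADP-ribosylation group, Parp14, an ADP-ribosyltransferase, was called at -0.70 (SE 0.25, p = 0.0206 in limma and 0.0571 in the exact permutation test). Parp9 and its partner Dtx3l had log2 fold changes of -0.69 and -0.46.

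The remaining 9 members are interferon targets with varied functions, and 6 of them were called. Ifi44 had the largest change of all members. Its levels were 6.87, 9.72, 8.97 and 6.54 in M + LFD and 5.49, 5.16, 6.34 and 7.17 in M + HFD. M + HFD replicate 4 lay above M + LFD replicates 1 and 4. For Ifi44 the log2 fold change was -1.98 (SE 0.76) or 3.95-fold lower, with p = 0.0302 in limma and 0.114 in the exact permutation test. Lgals3bp, a secreted glycoprotein that binds galectins, gave 14.13, 15.20, 14.95 and 14.28 in M + LFD and 13.24, 13.60, 13.66 and 13.70 in M + HFD. The 4 HFD males lay close together and below every LFD male. Lgals3bp was 2.13-fold lower, a log2 fold change of -1.09 (SE 0.26), with p = 0.0025 in limma and 0.0286 in the exact permutation test. It was called in all 18 alternative analyses of the males that kept the study's thresholds, while Irf7 and Oasl2 were called in 17 of 18, in each case lost with the distal Hox level as a covariate. The other calls were less stable. Ifi44 was called in 9 of 17 alternatives and Helz2 and Xaf1 in 10 of 18. Ifi27l2a was called in 11 of 18, Parp14 in 12, and Ddx58, Oas3 and Rtp4 in 14.

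Helz2, a helicase that acts as a nuclear coactivator, gave 12.20, 12.81, 12.27 and 12.02 in M + LFD and 11.62, 11.44, 11.90 and 11.92 in M + HFD. Its groups did not overlap. The log2 fold change was -0.61 (SE 0.20), just past the fold threshold, with p = 0.0167 in limma and 0.0286 in the exact permutation test. A second, dimmer probe for Helz2 gave 0.02 in the males, so the 2 probes disagree. Xaf1, which antagonizes the apoptosis inhibitor XIAP, was called at -1.18 (SE 0.45), Rtp4 at -1.14 (SE 0.41) and Ifi27l2a at -0.85 (SE 0.33). Tor3a, a torsin-family ATPase, had the smallest change of all members, with 10.33, 11.10, 10.69 and 10.45 in M + LFD and 10.03, 10.22, 10.71 and 10.31 in M + HFD. Its log2 fold change was -0.33 (SE 0.22), with p = 0.168 in limma and 0.2 in the exact permutation test. Ifi35 and Sp100 had log2 fold changes of -0.53 and -0.41.

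**Figure D2:**
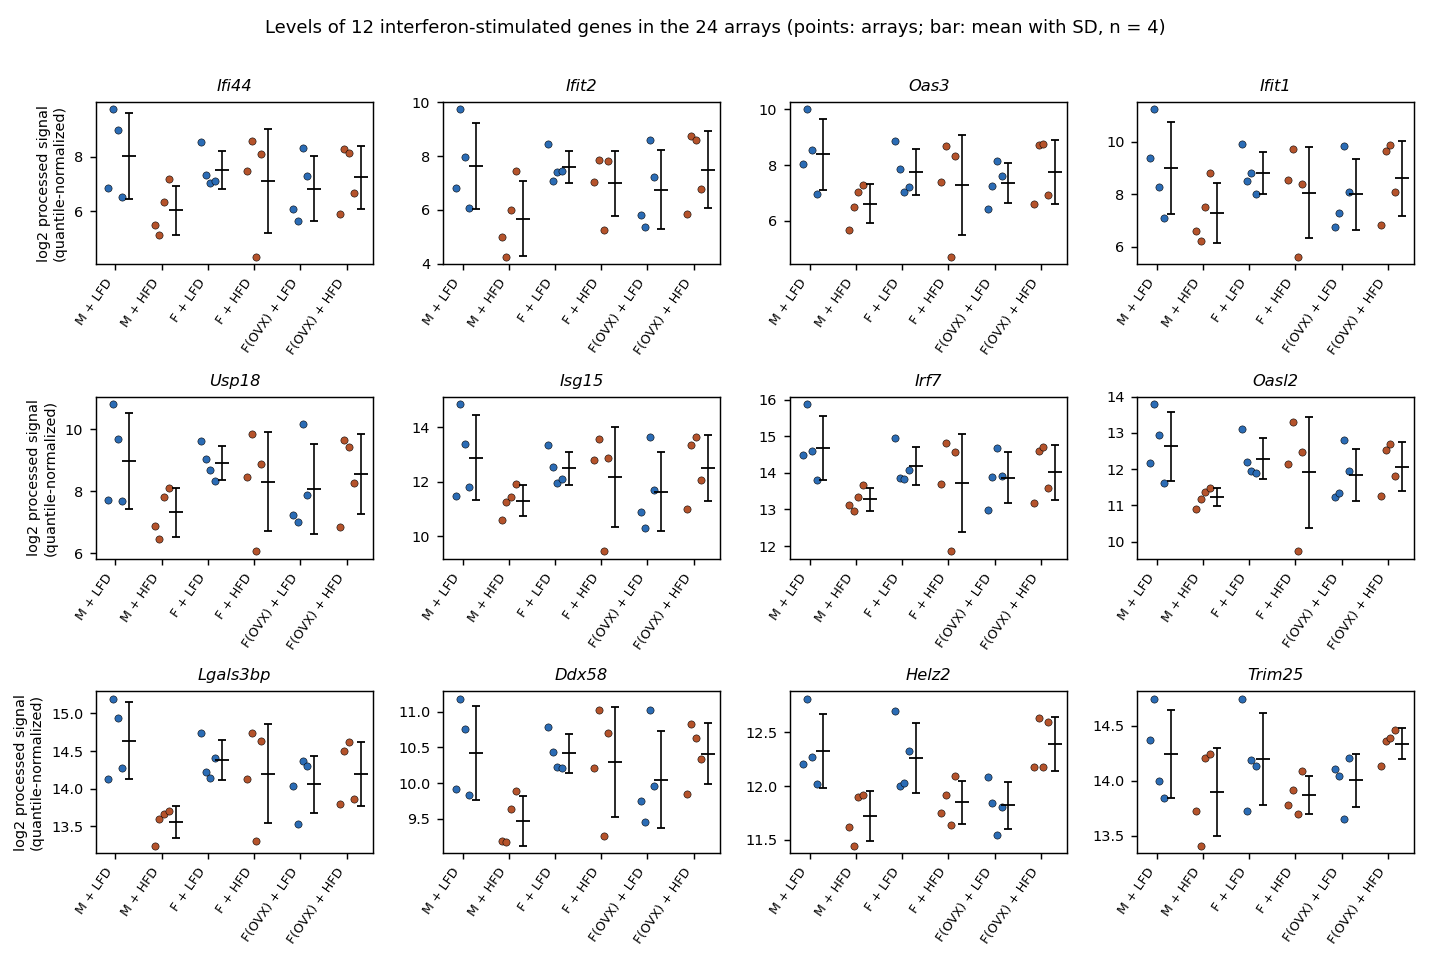
Log2 processed signal after quantile normalization (y axis, its own range for each gene) of 12 members in the 6 groups (x axis); points are single arrays, blue for LFD and orange for HFD, and the bar is the mean with its SD, n = 4. Irf7, Oasl2, Lgals3bp and Helz2 separate M + HFD from M + LFD without overlap, and F + HFD replicate 3 is the low point of its group for most genes.

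HFD against LFD in the females. No member was called in the females and none had an unadjusted limma p under 0.05, while 1.2% of the 22083 genes tested were called in either direction. The mean was lower for 34 members and higher for 5, with log2 fold changes from -0.81 to 0.13 and a median of -0.22. F + HFD replicate 3 was the lowest of its group for 38 of 39 members. Without it the median turned to 0.16. Without F + HFD replicate 2, the array of this group with the fewest probes above background (43.6%), the median was -0.42 and Parp14 and Stat2 were called lower.

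Irf7 shows the pattern, with 14.96, 13.87, 13.84 and 14.07 in F + LFD and 13.68, 14.82, 11.86 and 14.57 in F + HFD. F + HFD replicates 1 and 3 lay below every LFD female, and replicates 2 and 4 within their range. The log2 fold change was -0.45 (SE 0.62), with p = 0.485 in limma and 0.657 in the exact permutation test. Lgals3bp gave 14.74, 14.22, 14.14 and 14.40 in F + LFD and 14.12, 14.74, 13.30 and 14.63 in F + HFD, a log2 fold change of -0.18 (SE 0.32). Ddx58 gave 10.79, 10.43, 10.23 and 10.21 in F + LFD and 10.21, 11.03, 9.26 and 10.71 in F + HFD, a log2 fold change of -0.12 (SE 0.36). In these genes too the lowest of the 8 values was F + HFD replicate 3.

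The genes with the widest spread behaved alike. Ifi44 levels were 8.52, 7.32, 7.05 and 7.11 in F + LFD and 7.47, 8.56, 4.36 and 8.09 in F + HFD. Oas3 levels were 8.88, 7.88, 7.05 and 7.21 in F + LFD and 7.38, 8.70, 4.72 and 8.32 in F + HFD. Oasl2 levels were 13.11, 12.19, 11.95 and 11.88 in F + LFD and 12.15, 13.29, 9.73 and 12.49 in F + HFD. For these genes F + HFD held both the lowest value of the females, replicate 3, and a value near the top, replicate 2. Ifit1 levels were 9.91, 8.53, 8.83 and 8.01 in F + LFD and 8.53, 9.74, 5.63 and 8.38 in F + HFD. Ifit2 levels were 8.44, 7.09, 7.396 and 7.44 in F + LFD and 7.02, 7.85, 5.23 and 7.81 in F + HFD. The IFIT genes had log2 fold changes of -0.75 (SE 0.82) and -0.61 (SE 0.58). Isg15 levels were 13.34, 12.54, 11.97 and 12.12 in F + LFD and 12.80, 13.58, 9.45 and 12.88 in F + HFD. Usp18 levels were 9.61, 9.03, 8.67 and 8.32 in F + LFD and 8.45, 9.84, 6.07 and 8.88 in F + HFD. The differences for Isg15 and Usp18 were -0.32 (SE 0.83) and -0.60 (SE 0.72), smaller than their error.

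Stat2 levels were 11.87, 11.31, 11.41 and 11.76 in F + LFD and 11.07, 11.98, 10.62 and 11.19 in F + HFD. Irf9 levels were 12.07, 11.71, 11.69 and 11.74 in F + LFD and 11.56, 11.9996, 11.06 and 11.67 in F + HFD. Both differed little, at -0.37 (SE 0.28) and -0.23 (SE 0.20). Helz2 came closest to the threshold, with 12.70, 12.003, 12.03 and 12.32 in F + LFD and 11.75, 11.91, 11.64 and 12.10 in F + HFD. Its log2 fold change was -0.41 (SE 0.19), with p = 0.0585 in limma and 0.0857 in the exact permutation test, and its second probe gave 0.60, in the other direction. Trim25 levels were 14.75, 13.72, 14.19 and 14.13 in F + LFD and 13.78, 13.91, 13.70 and 14.09 in F + HFD, Ifih1 levels were 10.46, 10.09, 9.999 and 9.80 in F + LFD and 10.04, 10.66, 9.29 and 10.09 in F + HFD and Tor3a levels were 10.78, 10.73, 10.54 and 10.49 in F + LFD and 10.45, 10.92, 10.11 and 10.79 in F + HFD. These 3 genes gave log2 fold changes of -0.33, -0.07 and -0.07. The groups overlapped for every one of the 39 members.

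HFD against LFD in the OVX females. The members tended to the opposite side, without passing the test: 31 means were higher and 8 lower, the median log2 fold change was 0.19 and the range -0.24 to 0.87. No member was called, against 2.19% of the 19210 genes tested. Helz2 had an unadjusted limma p under 0.05 at a fold just under the threshold. Its levels were 12.08, 11.85, 11.54 and 11.81 in F(OVX) + LFD and 12.17, 12.63, 12.17 and 12.59 in F(OVX) + HFD. All 4 HFD arrays lay above all 4 LFD arrays, as they did for 1.48% of all genes tested. Helz2 had a log2 fold change of 0.57 (SE 0.18), with p = 0.0104 in limma and 0.0286 in the exact permutation test. Its second probe gave 0.38. Without the pair of arrays that were most alike (replicate 1 of both groups) Helz2 was called, and the median over the members was 0.23.

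Trim25 was the next closest, with 14.11, 14.05, 13.65 and 14.20 in F(OVX) + LFD and 14.13, 14.36, 14.39 and 14.46 in F(OVX) + HFD and a log2 fold change of 0.33 (SE 0.16), p = 0.0688 in limma and 0.0571 in the exact permutation test. Helz2 and Trim25 were the only members for which F(OVX) + LFD replicate 3 was the lowest of its group. That array was the highest of its group for the other 37. It also had the fewest probes above background of all arrays (40.5%), and the part of this in the levels was not tested. Without it Ddx58, Herc6 and Isg15 were called higher and the median was 0.50. A single member was called without F(OVX) + LFD replicate 1 or without F(OVX) + HFD replicate 1 or 3. The median was 0.00 without F(OVX) + LFD replicate 2 and 0.03 without F(OVX) + HFD replicate 2 or 3, and it turned to -0.11 with the distal Hox level as a covariate.

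The most responsive genes spread widely in both OVX groups. Isg15 levels were 10.89, 10.31, 13.66 and 11.70 in F(OVX) + LFD and 10.997, 13.36, 13.63 and 12.06 in F(OVX) + HFD. For Isg15 the log2 fold change was 0.87 (SE 0.79), the largest of the members here, with p = 0.299 in limma and 0.343 in the exact permutation test. Ifit2 levels were 5.80, 5.36, 8.60 and 7.22 in F(OVX) + LFD and 5.83, 8.76, 8.58 and 6.78 in F(OVX) + HFD. Ifit1 levels were 6.75, 7.29, 9.86 and 8.10 in F(OVX) + LFD and 6.82, 9.66, 9.88 and 8.11 in F(OVX) + HFD. In both, replicates 2 and 3 of the HFD group and replicate 3 of the LFD group were high. Ifi44 levels were 6.09, 5.66, 8.31 and 7.28 in F(OVX) + LFD and 5.91, 8.26, 8.11 and 6.68 in F(OVX) + HFD. Usp18 levels were 7.24, 6.999, 10.18 and 7.87 in F(OVX) + LFD and 6.86, 9.67, 9.42 and 8.27 in F(OVX) + HFD. Oas3 levels were 6.44, 7.24, 8.16 and 7.61 in F(OVX) + LFD and 6.62, 8.72, 8.77 and 6.93 in F(OVX) + HFD. Their log2 fold changes ran from 0.40 to 0.48, each under its SE.

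Irf7 levels were 12.996, 13.89, 14.68 and 13.92 in F(OVX) + LFD and 13.17, 14.59, 14.71 and 13.58 in F(OVX) + HFD. Oasl2 levels were 11.24, 11.35, 12.81 and 11.94 in F(OVX) + LFD and 11.25, 12.52, 12.71 and 11.81 in F(OVX) + HFD. Lgals3bp levels were 14.04, 13.53, 14.37 and 14.30 in F(OVX) + LFD and 13.79, 14.50, 14.62 and 13.86 in F(OVX) + HFD. These genes, which separated the male groups, overlapped here, at 0.14 (SE 0.43), 0.24 (SE 0.42) and 0.14 (SE 0.26). Ddx58 levels were 9.75, 9.46, 11.02 and 9.96 in F(OVX) + LFD and 9.84, 10.83, 10.63 and 10.34 in F(OVX) + HFD. Stat2 levels were 10.76, 10.76, 11.87 and 11.19 in F(OVX) + LFD and 10.76, 11.61, 11.51 and 11.19 in F(OVX) + HFD. Irf9 levels were 11.19, 11.42, 12.02 and 11.69 in F(OVX) + LFD and 11.23, 11.64, 11.44 and 11.47 in F(OVX) + HFD. Ddx58, Stat2 and Irf9 gave log2 fold changes of 0.36 (SE 0.35), 0.12 (SE 0.29) and -0.13 (SE 0.20). Ifih1 levels were 9.86, 10.28, 10.61 and 10.02 in F(OVX) + LFD and 9.69, 10.16, 10.35 and 9.60 in F(OVX) + HFD and Tor3a levels were 10.52, 10.70, 11.44 and 10.15 in F(OVX) + LFD and 10.53, 10.66, 11.04 and 10.40 in F(OVX) + HFD. Ifih1 had the lowest log2 fold change of the members, -0.24 (SE 0.23), and Tor3a one of -0.04 (SE 0.27).

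Whether the diet effect itself differed was tested as a contrast of the 2 diet effects in 1 fit of all 24 arrays. Between males and OVX females the difference was negative for all 39 members, with a median of -1.12, and 5 were called lower: Ifit2 at -2.71 (SE 1.24, adjusted p = 0.655 in limma), Ddx58 at -1.32 (SE 0.53, adjusted p = 0.586), Lgals3bp at -1.22 (SE 0.42, adjusted p = 0.563), Helz2 at -1.18 (SE 0.27, adjusted p = 0.563) and Trim25 at -0.68 (SE 0.32, adjusted p = 0.661). Ifit2 was not above background on M + HFD replicate 2, so the size of its difference is limited by that array. Of all genes tested, 3.05% were called lower in this contrast. The count ran from 2 to 21 when single arrays were left out, with 2 for replicate 2 of either LFD group, 3 without M + HFD replicate 1 or 2 or without F(OVX) + HFD replicate 2 or 3, 10 without M + HFD replicate 4, 11 without M + LFD replicate 1, 15 without F(OVX) + HFD replicate 1, 19 with M + LFD replicate 4 left out and 21 in the absence of F(OVX) + LFD replicate 3. With the replicate number as a block it was 10.

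Between males and females the difference was also negative for all 39 members, with a median of -0.69, but only Lgals3bp was called, at -0.91 (SE 0.42, adjusted p = 0.975 in limma), against 1.08% of all genes called lower. The M + LFD, M + HFD and F arrays bore on that call: with F + HFD replicate 3 left out 9 members were called, with M + LFD replicate 1 left out 3, and with its replicate 4 left out 2. None was called without M + LFD replicate 2 or 3, without M + HFD replicate 1 or 2, without F + LFD replicate 2, 3 or 4, or without F + HFD replicate 1, 2 or 4. Between OVX females and females Helz2 (0.99, SE 0.27) and Trim25 (0.66, SE 0.32) were called higher, against 0.764% of all genes, both with an adjusted p of 1 in limma. A single call was left in this contrast without any 1 of 12 of its 16 arrays, and with the mean of all probes of a gene neither remained. The 3 contrasts share arrays and are not independent of each other.

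Across the 6 groups M + HFD had the lowest mean for 36 of the 39 members, and M + LFD the highest for 23. F + LFD was highest for 8, F + HFD for 4, and each OVX group for 2. On the HFD, 38 members were lower in males than in females, with a median of -0.63, and 6 were called lower: Ifi27l2a at -1.22 (SE 0.40), Bst2 at -1.09 (SE 0.45), Ifitm3 at -0.99 (SE 0.37), Trim30a at -0.95 (SE 0.43), Ddx58 at -0.83 (SE 0.38) and Lgals3bp at -0.65 (SE 0.30). The background was 3.29% of genes called lower. The smallest adjusted p among the members was 0.202 in limma. The count was 22 without F + HFD replicate 3, 2 without M + HFD replicate 1 or without F + HFD replicate 2 or 4, and 3 without M + HFD replicate 2 or F + HFD replicate 1. On the LFD, no member was called between males and females (median 0.06), while 5.06% of genes were called in either direction.

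Between OVX and intact females on the same diet no member was called, and surgery and slide cannot be told apart there. On the LFD, 36 members were lower in the OVX than in the intact females, with a median of -0.37, and 1.7% of all genes were called in either direction. Without F(OVX) + LFD replicate 3, 2 members were called. On the HFD the median was 0.09, with 22 members higher and 17 lower, and 2.31% of genes were called. There, 1 member was called without F + HFD replicate 3 or 4 or without F(OVX) + HFD replicate 1 or 3.

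The members were next followed from mouse to mouse. For each array, the median over the 39 members of the deviation from the mean of the 24 arrays was taken. It was -0.17, 1.13, 0.58 and -0.35 in M + LFD and -0.86, -0.68, -0.52 and -0.23 in M + HFD. The male groups overlapped, since M + LFD replicate 4 lay below M + HFD replicate 4. In the females the median deviation was 0.64, 0.14, 0.07 and 0.04 in F + LFD and 0.00, 0.82, -0.92 and 0.49 in F + HFD. In the OVX females it was -0.44, -0.64, 0.77 and -0.07 on the LFD and -0.44, 0.55, 0.49 and -0.19 on the HFD. M + HFD was the only group in which all 4 arrays were below 0, and F + LFD the only one in which all were above. M + LFD replicate 2 was the highest of the 24 arrays for 31 members, and F + HFD replicate 3 the lowest for 19. The 2 highest arrays of the female slides, replicate 2 of F + HFD and replicate 3 of F(OVX) + LFD, were also those with the fewest probes above background of their groups. M + LFD replicate 3, the next highest of its group at 0.58, had the fewest probes above background of the male slide (45.9%). In M + HFD the array with the fewest, replicate 2 (47.4%), was at -0.68. Other high arrays had many probes above background. M + LFD replicate 2, the highest of all at 1.13, had 60.9%. F + LFD replicate 1, the highest of its group at 0.64, had 58.5%, the most of its group. M + LFD replicate 2 was 1 of the 2 arrays with a low distal Hox level. The part of either in the levels was not tested.

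**Figure D3:**
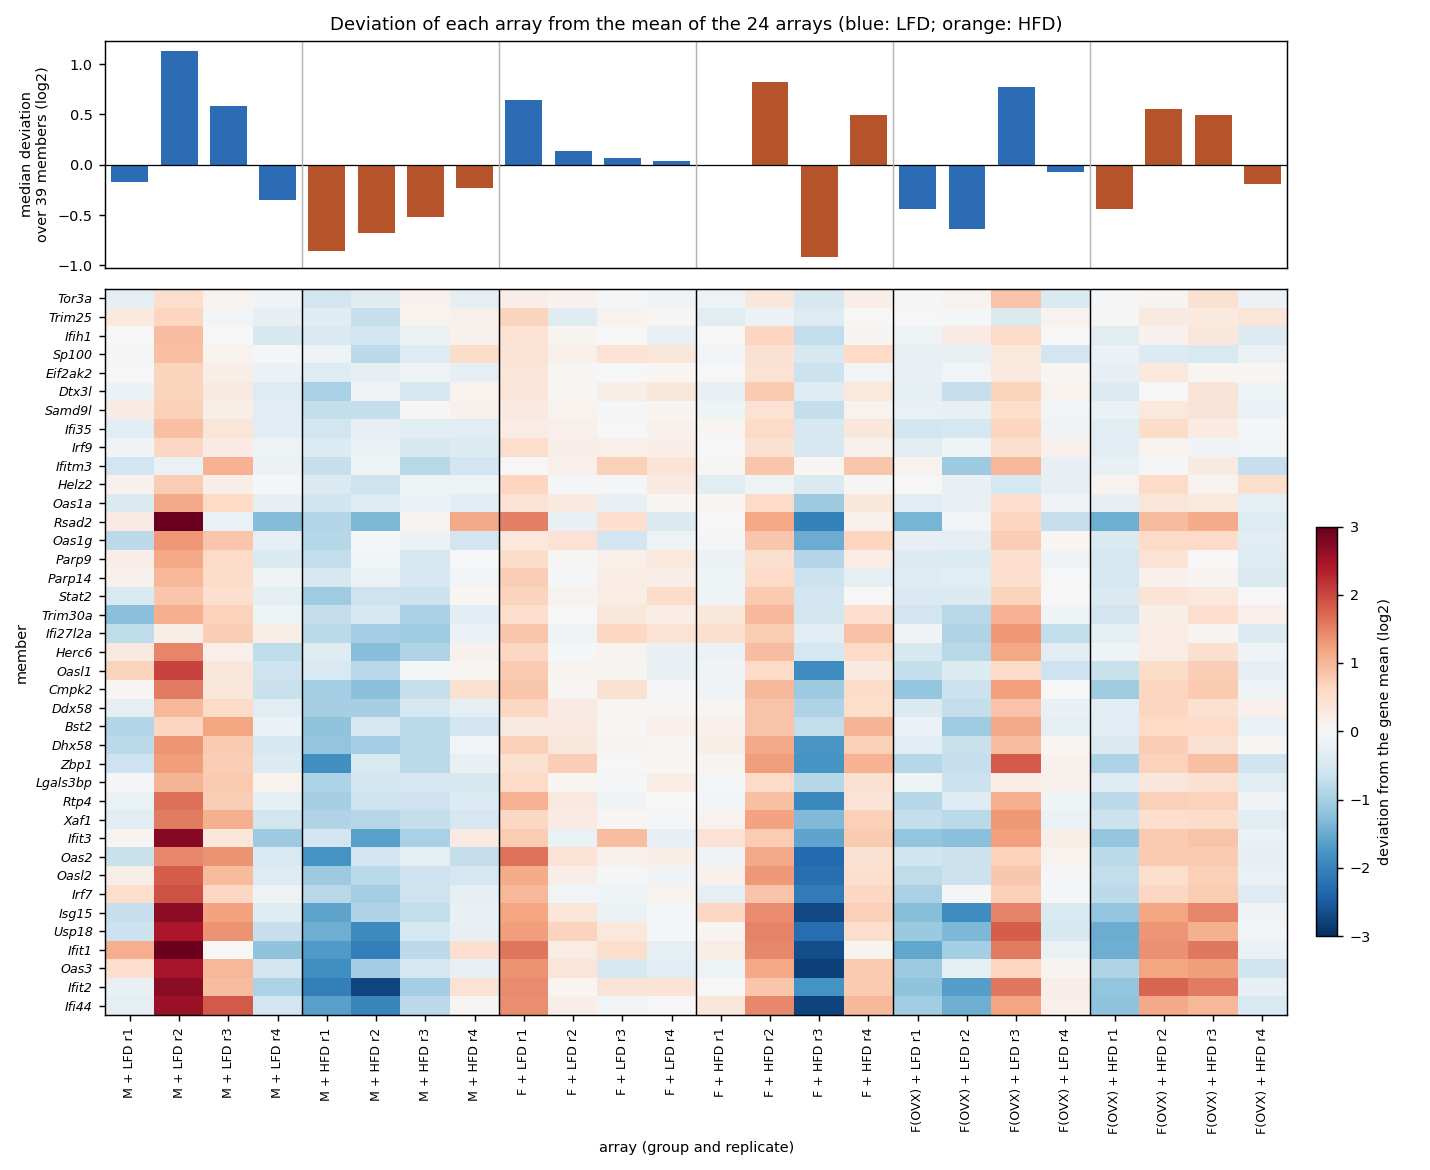
Deviation of each array from the mean of the 24 arrays: as a median over the 39 members (bars, upper panel, log2) and for each member (lower panel, color scale in log2, members ordered by their change in the males, the largest at the bottom). M + HFD is below the mean in all 4 arrays, M + LFD replicate 2 is above the mean for 38 of 39 members and F + HFD replicate 3 for 1.

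The spread between mice of one group was larger for these genes than for most. For the 36 members above background on all arrays the pooled SD within groups had a median of 0.62 on the log2 scale, against 0.297 for the 16830 genes above background on all arrays. Of these 36 members, 33 lay above that gene median and 19 in the top 10%. Ifit1 had the widest spread (SD 1.41) and went from 5.63 to 11.24 over the 24 arrays, a 48.9-fold range. Ifit2 followed with 1.32, Isg15 with 1.30, Ifi44 with 1.29, Usp18 with 1.27 and Rsad2 with 1.24. The narrowest were Helz2 at 0.27 and Eif2ak2 and Irf9 at 0.28, below the median of all genes. Of these 6 widest, 5 (all but Rsad2) were also among the 8 members with the largest change in the males.

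**Figure D4:**
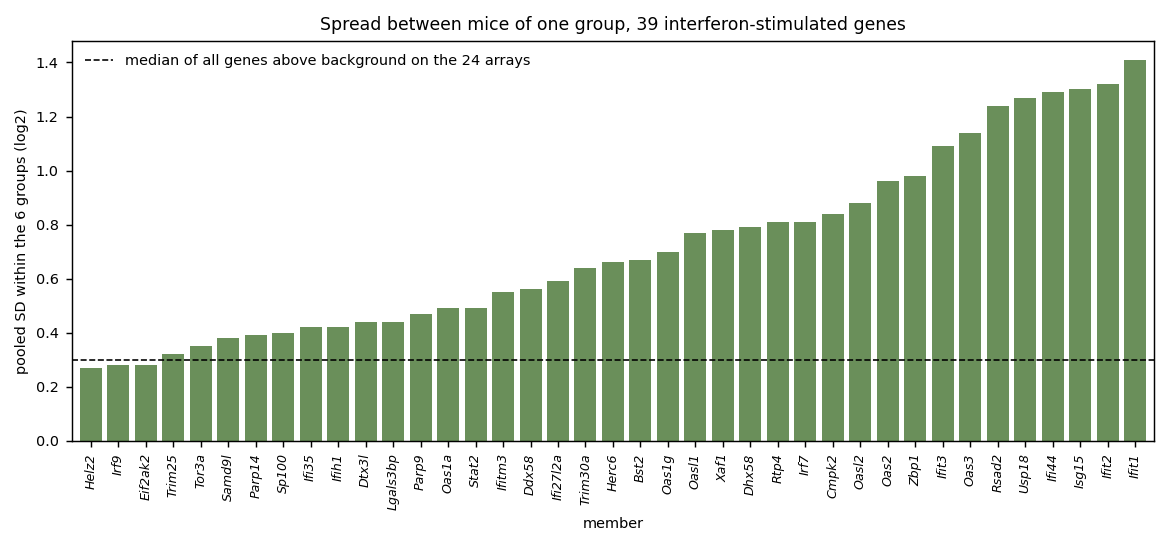
Pooled SD within the 6 groups (y axis, log2) of each of the 39 measured members (x axis, in rising order); the dashed line is the median of all genes above background on the 24 arrays, 0.297. Helz2, Eif2ak2 and Irf9 lie below the line, and Ifit1 is the highest at 1.41.

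Other genes of the interferon pathway were read from lists set up beside the members. Among the type I ligands, Ifnb1 was above background on 2 of the 24 arrays, Ifnk on 12, Ifna9 on 9, Ifna14 on 2 and Ifna1 on 1, and Ifna2, Ifna4, Ifna5, Ifna11, Ifna12, Ifna13 and Ifne on none. Ifnl3, a type III ligand, was above background on 14 arrays, and the receptor gene Ifnlr1 on all 24. Ifng, the ligand of the type II response, was above background on 20 arrays. In the males it was at 5.61 ± 0.69 (SD) in M + LFD and 4.28 ± 0.46 in M + HFD, which met the thresholds for a call (p = 0.00561 in limma and 0.0857 in the exact permutation test). It entered the test through M + LFD alone, and only 2 of the 4 M + HFD arrays were above background, so the M + HFD mean and the size of the difference rest partly on signals at background. Of the 6 interferon receptor genes none was called in any diet comparison. Ifnar1 had log2 fold changes of 0.09, -0.22 and -0.03 in the males, females and OVX females, and Ifnar2 of -0.10, -0.20 and -0.15.

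Of the JAK-STAT genes reported here Socs3, an inhibitor of cytokine receptors, fell in the females by 0.91 on the log2 scale. Among 12 upstream sensors and adaptors tested in the males only Tlr3, the endosomal sensor of double-stranded RNA, was called, at -0.69, and among 13 tested in the females and in the OVX females none was. None of the 8 other interferon regulatory factors was called. Irf1 had log2 fold changes of -0.51, -0.46 and -0.01 and Irf3, which starts interferon production, of 0.29, 0.02 and 0.05 in the males, females and OVX females.

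Interferon-gamma-induced GTPases and genes of MHC class I presentation were read in the same way, beside the 1.8% of all genes called lower in the males. Of 13 tested interferon-gamma-induced GTPases 12 were lower in mean and 1 higher in the HFD males, with a median of -0.85. Of these, 7 were called lower (Ifi47, Iigp1, Gbp6, Igtp, Irgm1, Irgm2 and Gbp8, from -1.50 to -0.72). In the females and OVX females none was called, with medians of -0.50 and -0.14. There, 14 of 14 and 10 of 13 tested were lower in mean. Of 20 genes of MHC class I presentation 19 were lower in mean and 1 higher in the males, with a median of -0.49. Of these, 6 were called lower (Tap1, Nlrc5, Psmb8, B2m, H2-T23 and H2-K1, from -1.02 to -0.60). None was called in the females or OVX females, where 17 and 11 of 20 were lower in mean, with medians of -0.25 and -0.01. These lists share the male arrays with the members, and their values are given side by side only.

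Markers of the cell types that a piece of colon can hold were read beside these results. The T cell markers were lower in mean in the HFD males for all 9 measured genes. Of these, Cd8b1 (-1.26) and Cd3g (-0.64) were called, beside 1.8% of all genes called lower. The same list was also lower on the HFD for 8 of 9 genes in the females and 7 of 9 in the OVX females, with none called. The median log2 fold changes were -0.55, -0.34 and -0.16 in the males, females and OVX females. The mean log2 level of the T cell markers was 8.49 to 9.11 in the M + LFD arrays and 7.96 to 8.32 in the M + HFD arrays, without overlap. In the females it was 8.27 to 9.54 on the LFD and 8.0 to 9.32 on the HFD, and in the OVX females 8.23 to 9.34 and 8.04 to 8.72. The leukocyte list as a whole overlapped in the males, at 8.92 to 10.10 and 8.93 to 9.93, with none of 8 called. So did the markers of plasmacytoid dendritic cells, a main source of type I interferon, at 9.47 to 10.32 and 9.61 to 10.28, and those of macrophages, at 9.44 to 10.32 and 9.90 to 10.29. In the HFD males 10 of 11 macrophage markers were higher in mean and 1 lower, with a median of 0.09. Of the B and plasma cell markers 6 of 8 tested were higher and 2 lower there, with a median of 0.31. None of either list was called in the males. The list of plasmacytoid dendritic cells includes Bst2, itself a member. In the males 7 genes of that list were tested, 5 lower and 2 higher in mean, from -0.96 to 0.77. Whether the list reads the number of these cells was not tested. Epithelial markers, which check the labelled tissue, were at 14.09 to 15.04 on every array. Of these 12 markers, though, Cdx2, an intestinal transcription factor, was called lower in the males at -1.77. Of the 3 distal Hox genes 1, Hoxd13, was called higher there, at 4.75. Of all 20511 genes tested in the males, 370 were called lower and 512 higher. In the OVX females on the HFD, 4 of 7 smooth muscle markers were called higher, beside 226 of all 19210 genes tested. Called lower were 2 of 11 macrophage markers and 1 of 9 B and plasma cell markers, beside 195 of all genes. In the females no marker of these lists was called. There, 7 of 7 smooth muscle markers were higher in mean on the HFD, and 10 of 11 macrophage markers lower. Of the neutrophil markers Cxcr2 was not above background on any array. The part of T cell number or of colon region in the change of the members was not tested, beyond the fits without the M + LFD arrays and with the Hox level given above.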

How the data were processed

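Colon RNA of 24 mice was hybridised to 1-color Agilent arrays, 4 in each of 6 groups taken from the labels. The deposited intensity values are scanner output made by the authors with Agilent Feature Extraction 11.0.1.1: a background-subtracted processed signal and the raw median signal of each spot and its background. The deposited flags (other values, 0 or 1, per the file headers) mark control, outlier and background spots. As in the study's methods, the log2 of the processed signal was quantile-normalized; control spots and outlier flags were left out. Of 56605 probes, 58.3% matched a RefSeq symbol by accession, and the brightest probe stood for each gene. Testing required that probe to be above background throughout at least 1 of the groups compared. HFD and LFD were compared with limma 3.58.1 (R 4.3.3; lmFit and eBayes, two-sided) on the 8 arrays of each sex or surgery, and other contrasts in a fit of all 24 arrays. As in the study, calls needed an unadjusted p under 0.05 together with a 1.5-fold change or more, with Benjamini-Hochberg values beside them. A two-sided exact permutation test over the 70 assignments of 8 arrays was run for each member (smallest p 0.0286). The number of arrays limits the precision. The p-values measure only the spread between these arrays.

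The members, gene lists and markers were chosen with earlier results of these data known. Values in every array are given for the 8 members with the largest and the 3 with the smallest change in the males, for Stat2 and Irf9, for members called in the females or OVX females (none), and for 4 genes the study singled out on these samples (Irf7, Helz2, Ddx58 and Lgals3bp), which is no independent evidence of their direction. Of the pathway and marker genes, the study also singled out Ifi47, B2m, H2-K1 and Cd3g on these samples. Their calls here are no independent evidence either. H2-Q7 and Cd3d, which it singled out as well, were not called here. The replicate number is the column on the slide. Deviations of same-numbered arrays correlated by 0.26 to 0.58 in the females. In the males the range was -0.26 to 0.01 and in the OVX females -0.09 to 0.33. The numbers were taken to pair the females only, although replicates 1 and 3 of the OVX females, at 0.33 and 0.32, lay within the range of the females. The limma and exact permutation p-values given for the females do not use that pairing. The alternatives were other scalings, background corrections, filters, probe rules, tests and fits, a replicate block, the distal Hox level, and leaving out arrays. The fit was tested on simulated data. Of the pathway genes, 1 item is not reported here.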

Additional observations from a re-analysis of the deposited data

Results flagged for a closer look

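In groups of 4 arrays, 1 value stood far from the others: Irf9 in F + LFD, where replicate 1 was at a log2 level of 12.07 and the other arrays at 11.69 to 11.74. It was 1 of 120 groups looked at, over 20 members, while chance flags about 1 group in 20.

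The diet effect differed between sexes or surgery for 5 members at the thresholds of the study. They made up 8 calls, from contrasts that share arrays, and none passed after adjustment over all genes in limma. Between males and females Lgals3bp differed by -0.91 on the log2 scale. Between males and OVX females the differences were -2.71 for Ifit2, -1.32 for Ddx58, -1.22 for Lgals3bp, -1.18 for Helz2 and -0.68 for Trim25. Between OVX females and females they were 0.99 for Helz2 and 0.66 for Trim25. The second probes of Helz2 and Trim25 gave other values: for males, females and OVX females in turn, HFD minus LFD was 0.02, 0.60 and 0.38 by the second Helz2 probe, and -0.25, -0.05 and -0.04 by that of Trim25.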

How the results depend on the processing

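The count of called members was the value that moved most, and no count survived Benjamini-Hochberg adjustment in limma (0 in each comparison). For HFD against LFD in the males (11), the methods' t-test gave 6 and the distal Hox covariate 4, and leaving out 1 array gave 3 to 25, with medians of -1.15 to -0.51. In the females (0), leaving out 1 array gave 0 to 2 and medians of -0.42 to 0.16, the sign turning without F + HFD replicate 3. In the OVX females (0), scaling to the 75th percentile, no fold threshold and leaving out the most alike pair each gave 1, and leaving out 1 array gave 0 to 3 with medians of 0.00 to 0.50; the median turned to -0.11 with the Hox covariate. Leaving out the dimmest arrays, replicate 2 of F + HFD and replicate 3 of F(OVX) + LFD, gave 2 in the females and 3 in the OVX females.

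For the males against the females (1), 75th-percentile scaling, the t-test, the Hox covariate, a fit of the compared arrays alone, and leaving out M + LFD replicates 1 and 2 or the dimmest arrays each gave 0, and leaving out 1 array gave 0 to 9. For the OVX females against the females (2), 75th-percentile scaling, the t-test and the Hox covariate gave 1, the mean of all probes 0, the dimmest arrays left out 3, and leaving out 1 array 1 to 2. For the males against the OVX females (5), 75th-percentile scaling, the mean of all probes and leaving out M + LFD replicates 1 and 2 gave 3, the Hox covariate 1, the dimmest arrays left out 25, and leaving out 1 array 2 to 21. Between groups on 1 diet, M + HFD against F + HFD (6) gave 3 without the dimmest arrays and 2 to 22 leaving out 1 array. F(OVX) + LFD against F + LFD (0) gave 3 without the dimmest arrays, 1 with no fold threshold and 0 to 2 leaving out 1 array. F(OVX) + HFD against F + HFD (0) gave 1 without the most alike pair, 2 with no fold threshold and 0 to 1 leaving out 1 array. M + LFD against F + LFD stayed at 0 in every setting run. Causes were not tested.

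With the replicate number as a block, the paired fit of the females gave 0 calls, as without it. Where the numbers were not taken to pair the arrays, the block gave 14 in the males and 0 in the OVX females. It gave 10 for the males against the OVX females and 1 for the OVX females against the females. The most alike pair was chosen for leaving out after seeing the data. Members dim on some arrays (Ifit2, Ifi44 and Herc6) are limited by signal over background.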
